A study of Rattus norvegicus and Sus scrofa and Bos taurus with 188 samples.

Results

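Kinesins, dyneins and tubulins, with the factors that fold tubulin and set how long microtubules last, were described in pig morulae marked PG. On sister samples of the series that mark stands for embryos activated without sperm, so the embryos are taken to be parthenogenetic. The members were all gene names of the deposited table that begin with the family symbols: KIF and KIFC (kinesins), KLC (kinesin light chains), DYNC and DYNL (cytoplasmic dynein and its light chains), DCTN (dynactin), DNAH and DNAI (axonemal dynein), TUBA, TUBB, TUBD and TUBE (tubulins), TBC with the letters A to E (tubulin folding cofactors), STMN (stathmins) and MAPRE (end-binding proteins). This gave 89 of 15877 gene names. The rule reads the gene name alone and uses no FPKM value. The series itself profiles DNA methylation, histone marks and RNA in gametes and early embryos of several mammals, and this group of 4 Smart-seq2 libraries (full-length cDNA of polyadenylated RNA) is its only one analysed here. Its labels give the species, the morula stage and the PG mark, with no age, breed or embryo number.

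Microtubules are hollow polymers of alpha and beta tubulin pairs. They grow and shrink at their ends, and motor proteins walk along them. Most kinesins move towards the growing plus end and dynein moves towards the minus end. In dividing blastomeres a set of kinesins builds the spindle, aligns chromosomes and drives cytokinesis, while other kinesins and cytoplasmic dynein with its cofactor dynactin carry vesicles, organelles and RNA. A further set works inside cilia: kinesin-2 and dynein 2 carry material along the cilium, and axonemal dyneins make motile cilia beat.

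The authors merged the 4 libraries into 1 column of FPKM, a fragment count scaled by transcript length and by the mapped fragments of the library. A gene's level below is the FPKM of its highest transcript row, unless summed rows are named. Because the libraries share 1 column, no value has a replicate spread, and no interval or test is given. The depth is unknown. All contrasts are therefore between genes within this merged RNA, per transcript length, and no other stage or fertilised embryo is used. Embryo identity was checked against marker lists, which do not separate the morula from neighbouring stages. All 10 measured markers of pluripotent or early embryonic cells stood at 1 FPKM or more, with KLF17 highest at 85.9 FPKM. POU5F1 and NANOG, also on that list, are not analysed here. By the same measure 2 of 13 cumulus or granulosa markers passed (FST at 16.9 FPKM and VCAN at 10.2 FPKM), with FSHR, INHA, FOXL2 and TNFAIP6 listed at 0, as did 1 of 10 fibroblast markers (THY1 at 1.83 FPKM), 0 of 9 markers of multiciliated epithelium and 0 of 8 sperm markers. Neuronal markers passed in 4 of 9 cases, with NEFL highest at 20.2 FPKM. Over all genes 48.8% stood at 1 FPKM or more. In merged RNA of whole embryos, fewer cells with a transcript and less of it per cell cannot be told apart.

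Of the 89 members 53 (59.6%) stood at 1 FPKM or more, beside 48.8% of all genes. At 10 FPKM or more there were 26 members (29.2%), against 20.2% of all genes. Only TUBA1B and STMN1 passed 100 FPKM, a level reached by 3.14% of all genes. The median member lay at 1.62 FPKM and the median gene at 0.916 FPKM. Of the 36 members below 1 FPKM, 8 had no value above 0. Among these 8, DYNC1H1, TUBB4B and KIF26A fall in a run of 474 rows at the end of the table that are all at 0, and their levels are not interpreted. Counts and medians below include them as under the threshold unless they are said to be left out. The other 5, KIF2B, KIF17, KIF25, KIF1C and KIFC3, lie elsewhere in the table. A 0 in such a table can be a failed estimate, so they are named as listed at 0 only.

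The members were set in 4 classes by role. Among these the mitotic kinesins, a class of 1 role, had the highest share and median, with 11 of 14 (78.6%) at 1 FPKM or more and a median of 13.3 FPKM. The transport class, made of cargo kinesins, kinesin light chains, cytoplasmic dynein 1, dynein light chains and dynactin, followed with 20 of 28 (71.4%) and a median of 3.35 FPKM, or 74.1% and 4.85 FPKM with DYNC1H1 left out. The tubulin class, which also holds folding cofactors, stathmins and end-binding proteins, had 14 of 20 (70.0%) and a median of 3.88 FPKM, or 73.7% and 5.57 FPKM with TUBB4B left out. Ciliary members were lowest, with 6 of 20 (30.0%) and a median of 0.177 FPKM, below the median of all genes. Without the axonemal dyneins the other 9 ciliary members were still the lowest class. They had 5 (55.6%) at 1 FPKM or more and a median of 1.02 FPKM, near the 48.8% and 0.916 FPKM of all genes. At 5 FPKM or more these 9 had 22.2%, beside 28.4% of all genes. Ciliary kinesins (4 of 8, median 0.896 FPKM) and cargo kinesins (5 of 10, median 0.893 FPKM) had the same share. By single role, folding cofactors (median 28.9 FPKM), cytoplasmic dynein 1 (19.7 FPKM) and dynactin (16.9 FPKM) had higher medians than the mitotic kinesins. At 10 FPKM or more the counts were 7 mitotic (50%), 11 transport (39.3%), 6 tubulin (30%) and 1 ciliary member (5%), beside 20.2% of all genes. The remaining 7 members belong to none of these classes.

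**Figure D1:**
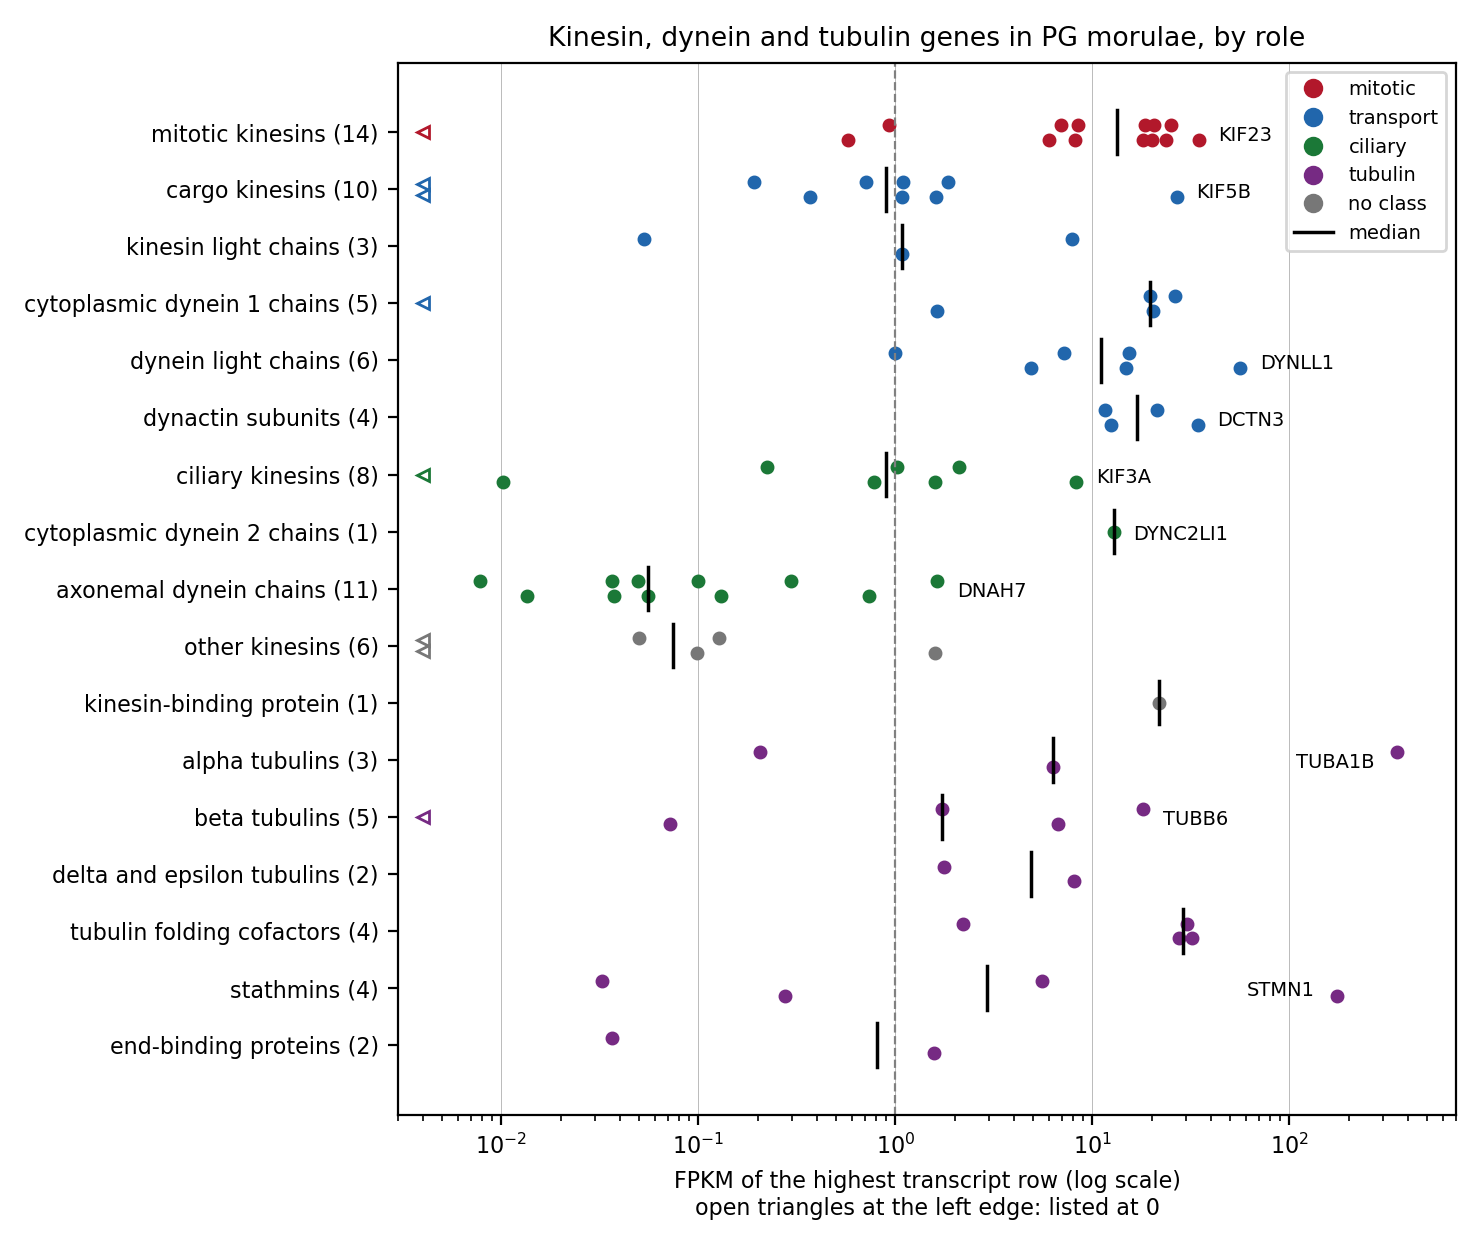
FPKM of the highest transcript row of each of the 89 members (points, log axis) by role, coloured by class, with the number of members in brackets, the list median as a black bar and the 1 FPKM threshold as a dashed line. TUBA1B (350.0 FPKM) and STMN1 (174 FPKM) lie far to the right, and 10 of 11 axonemal dynein chains lie left of the threshold.

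On the log2(FPKM + 1) scale the median of the mitotic class exceeded that of the transport class by 1.72 and that of the ciliary class by 3.52. The transport median exceeded the ciliary median by 1.80. These are differences between genes of 1 merged sample and carry no error. The order mitotic, transport, ciliary was kept in each alternative run, but the gaps moved. The difference between the mitotic and transport classes shrank to 0.84 with means in place of medians and to 1.20 with the run of zeros left out. Axonemal dyneins make up 11 of the 20 ciliary members, and without them the transport class exceeded the ciliary class by 1.02.

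**Figure D2:**
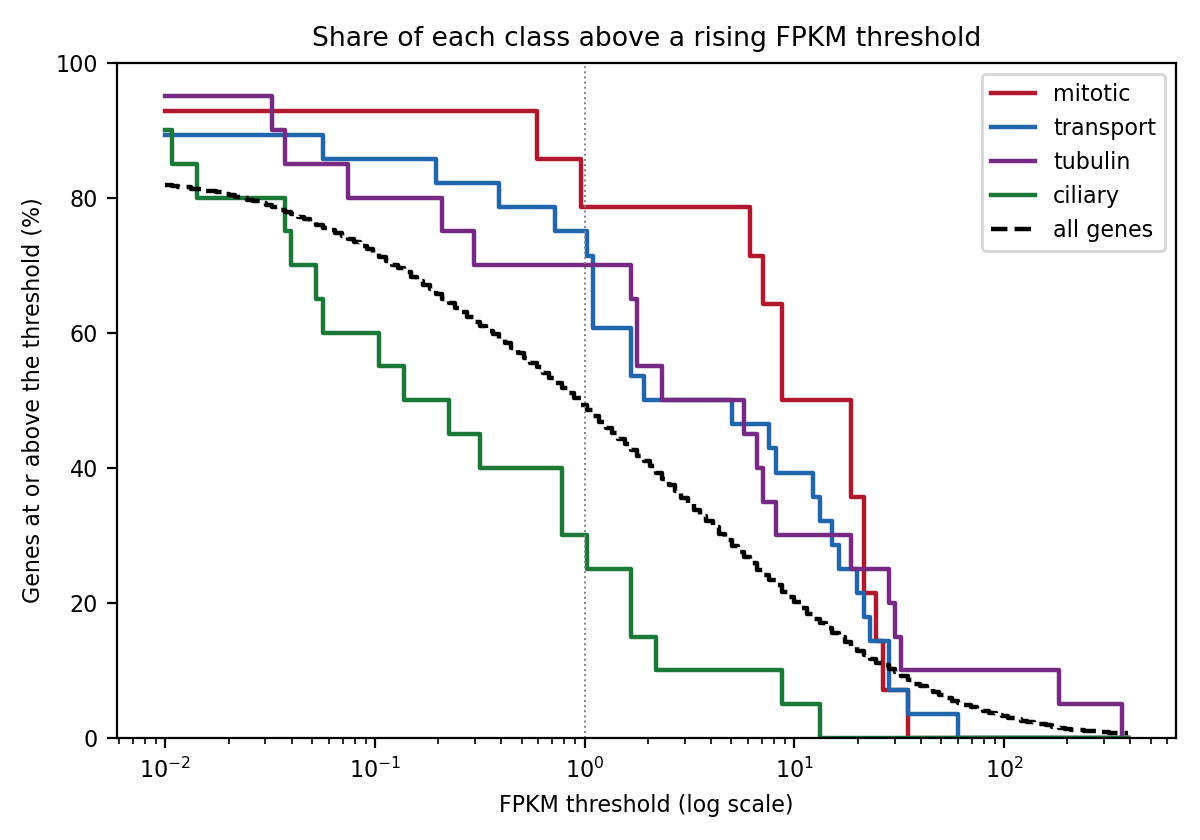
Percentage of genes (vertical axis) at or above an FPKM threshold (horizontal log axis) for the mitotic, transport, tubulin and ciliary classes and for all 15877 genes (dashed). The mitotic curve stays at 78.6% from 1 to 5 FPKM, where the transport curve drops from 71.4% to 46.4%, and the ciliary curve runs below that of all genes at 1 FPKM (30.0% against 48.8%).

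Among mitotic kinesins 7 genes formed a narrow upper band between 18.1 and 34.6 FPKM. KIF23 led at 34.6 FPKM. It is the motor of centralspindlin, which bundles the central spindle and positions the cleavage furrow, and its partner gene RACGAP1, picked with its level of 34.3 FPKM already known, was near it by the highest row, while summed rows gave 59.7 FPKM for KIF23 and 36.8 FPKM for RACGAP1. The chromosome arm motor KIF22 (25.1 FPKM) and the chromokinesin KIF4A (23.7 FPKM), which shortens midzone microtubules, came next. KIF18A, which damps chromosome movement at the metaphase plate, was at 20.6 FPKM and KIF20A, which brings the chromosomal passenger complex to the midzone, at 20.0 FPKM. The microtubule depolymeriser KIF2C (18.4 FPKM) and the spindle-separating motor KIF11 (18.1 FPKM) closed this band. The band thus holds motors for spindle bipolarity, chromosome alignment and cytokinesis. With rows summed it widened to between 18.1 FPKM (KIF11) and 59.7 FPKM (KIF23).

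A second band of 4 mitotic kinesins lay between 6.02 and 8.49 FPKM. It held KIF15, which backs up KIF11 in keeping poles apart, at 8.49 FPKM and the pole depolymeriser KIF2A at 8.14 FPKM. The minus-end motor KIFC1, which focuses poles, stood at 6.95 FPKM and the cytokinesis motor KIF20B at 6.02 FPKM. All 4 spread their signal over several transcripts, so this gap to the upper band depends on how rows are combined. KIF11 was 2.13 times KIF15 by the highest row but 1.09 times with rows summed. KIF20A exceeded KIF20B 3.33-fold by the highest row and 1.10-fold with rows summed. With sums, KIF20B came to 21.2 FPKM, KIF15 to 16.6 FPKM, KIF2A to 15.7 FPKM and KIFC1 to 12.2 FPKM.

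The other 3 mitotic kinesins lay below 1 FPKM. KIF18B, which limits astral microtubules, stood at 0.574 FPKM, so that KIF18A was 35.9 times higher. KIF14, a motor of the midbody, was just under the threshold at 0.925 FPKM and crossed it with rows summed (1.41 FPKM). KIF2B, the third gene of the depolymerising kinesin-13 family, was listed at 0 beside KIF2C and KIF2A.

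Spindle genes outside the members were also mostly above 1 FPKM, beside 48.8% of all genes. Of 13 measured spindle-associated proteins 12 passed, with CKAP2 (83.7 FPKM), NUSAP1 (50.4 FPKM) and HMMR (40.2 FPKM) highest, and NUMA1, the pole protein that binds dynein, at 0.440 FPKM. The gamma tubulin complex, which nucleates microtubules, passed in 8 of 9 cases, led by MZT1 (50.04 FPKM), TUBG1 (20.4 FPKM) and NEDD1 (9.68 FPKM), with TUBGCP6 at 0.356 FPKM. Augmin, which branches new microtubules off old ones, passed in 4 of 5 cases with HAUS2 at 35.6 FPKM, HAUS1 at 34.2 FPKM and HAUS6 at 11.1 FPKM, and HAUS8 at 0.807 FPKM. Their medians were 5.96, 3.53 and 11.1 FPKM, against 13.3 FPKM for the mitotic kinesins. That last median falls in the gap between KIF15 (8.49 FPKM) and KIF11 (18.1 FPKM). The kinetochore kinesin CENPE, which the symbols above do not catch, is part of the spindle list, and its 5.96 FPKM is the median there. Counting CENPE with the mitotic kinesins instead would lower their median, so the order against augmin depends on where CENPE is placed.

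Cargo kinesins were led by 1 gene. KIF5B, the widely expressed heavy chain of conventional kinesin, stood at 26.9 FPKM (45.9 FPKM with rows summed), while the next cargo kinesin, KIF5A, reached 1.85 FPKM. KIF5B was thus 14.5 times KIF5A and 73.1 times KIF5C (0.367 FPKM), both of which are known mainly from neurons. KIF13B (1.61 FPKM), the mitochondrion and vesicle motor KIF1B (1.09 FPKM) and KIF3C (1.08 FPKM) lay just above the threshold. The endosome motor KIF13A (0.710 FPKM, 1.37 FPKM with rows summed) and the minus-end motor KIFC2 (0.191 FPKM) lay below it, and KIF1C and KIFC3 were listed at 0. Of the 10 cargo kinesins 5 passed 1 FPKM and 1 passed 5 FPKM, against 11 of 14 mitotic kinesins at either threshold. Over all genes the shares were 48.8% and 28.4%.

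Of the 3 measured light chains, which link conventional kinesin to its cargo, KLC4 was highest at 7.86 FPKM. KLC1 is not analysed here. KLC2 was at 1.08 FPKM (1.67 FPKM with rows summed) and KLC3, known from sperm tails, at 0.0530 FPKM. Among cargo adaptors and partners 4 of 9 (44.4%) passed 1 FPKM, beside 48.8% of all genes. These were the mitochondrial motor receptor RHOT1 (15.1 FPKM), SPAG9 (14.6 FPKM), TRAK2 (4.47 FPKM) and the kinesin-2 subunit KIFAP3 (2.13 FPKM). PLEKHM2, which links lysosomes to kinesin, was at 0.649 FPKM, and MAPK8IP1 (0.291 FPKM) and MAPK8IP3 (0.283 FPKM) followed. KIF1BP, matched by the rule though it is a protein that binds kinesins and blocks their motor domains, stood at 21.8 FPKM, within the band of the upper mitotic kinesins.

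Cytoplasmic dynein 1 and dynactin were more even than the cargo kinesins. All 8 members of both complexes outside the run of zeros passed 1 FPKM, with a median of 20.02 FPKM, and 7 passed 10 FPKM. Over all genes 48.8% passed 1 FPKM and 20.2% passed 10 FPKM. The light intermediate chains DYNC1LI1 (26.4 FPKM) and DYNC1LI2 (20.3 FPKM), which bind cargo adaptors, and the intermediate chain DYNC1I2 (19.7 FPKM), which binds dynactin, lay within 1.34 times of each other. The second intermediate chain, DYNC1I1, known mainly from neurons, stood at 1.62 FPKM, 12.2 times lower than DYNC1I2. The motor subunit itself, DYNC1H1, falls in the run of zeros, so its level cannot be set beside these.

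In dynactin, DCTN3 (34.1 FPKM) and the dynamitin gene DCTN2 (21.4 FPKM), both of the shoulder that holds the projecting arm, stood above the pointed-end subunits DCTN5 (12.4 FPKM) and DCTN6 (11.6 FPKM). The filament and its caps are encoded by genes with other symbols, chosen after their values were seen: ACTR1A was at 35.3 FPKM and its paralogue ACTR1B at 1.01 FPKM, ACTR10 was at 67.4 FPKM, and the cap genes CAPZA1, CAPZA2 and CAPZB were at 57.6, 20.7 and 21.2 FPKM. DCTN1 and DCTN4 are not analysed here. Dynein regulators were above 1 FPKM in 8 of 11 cases (72.7%), beside 48.8% of all genes. Highest were the kinetochore recruiter SPDL1 (46.7 FPKM), the lissencephaly gene PAFAH1B1 (21.7 FPKM) and NDEL1 (15.0 FPKM). NIN (0.982 FPKM), HOOK2 (0.157 FPKM) and BICD1 (0.0499 FPKM) lay below.

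Dynein light chains held the highest member of the transport class. DYNLL1, a small dimer that also serves many other protein complexes, stood at 56.4 FPKM, 3.69 times its near-copy DYNLL2 (15.3 FPKM). DYNLT1 was at 14.9 FPKM, whereas its paralogue DYNLT3 sat at the threshold with 0.9997 FPKM. Of the roadblock chains DYNLRB2, known mainly from ciliated tissue and testis, was at 7.13 FPKM and DYNLRB1 at 4.85 FPKM. Light chains of the DYNLT family under older symbols, which are no members and were chosen after their values were seen, lay below 1 FPKM: TCTEX1D1 was at 0.110 FPKM, and TCTEX1D4 and TCTE3 were listed at 0. Since reads of near-identical paralogues can be split in the assignment, the levels of DYNLL1 against DYNLL2 and of the tubulins below are uncertain to that extent.

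Ciliary motors ranged from 0 to 12.9 FPKM, and those for transport along the cilium overlapped with the axonemal chains. Kinesin-2, the motor of transport into the cilium, was represented by KIF3A at 8.28 FPKM and KIF3B at 1.59 FPKM (2.28 FPKM with rows summed), 2 chains that pair in 1 motor. Their shared partner KIFAP3 stood at 2.13 FPKM, and KIF17, the second kinesin-2 type, was listed at 0. The dynein 2 light intermediate chain DYNC2LI1, for the return journey, had the highest level of the measured ciliary members at 12.9 FPKM (21.8 FPKM with rows summed). DYNC2H1 of the same dynein is not analysed here. KIF24, which restrains cilium formation, was at 2.10 FPKM, and KIF7, a Hedgehog pathway regulator at the cilium tip, at 1.02 FPKM. KIF27 (0.775 FPKM), KIF9 (0.224 FPKM) and KIF19 (0.0102 FPKM), all linked to motile cilia, lay below 1 FPKM.

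Axonemal dyneins had 1 of 11 members (9.09%) at 1 FPKM or more, beside 48.8% of all genes, and a median of 0.0556 FPKM. The exception was the inner-arm heavy chain DNAH7 at 1.63 FPKM. DNAH11 (0.733 FPKM), DNAH9 (0.296 FPKM) and DNAH5 (0.130 FPKM), heavy chains of the outer arm, came next. DNAH2, DNAH8, DNAH3, DNAH17, DNAI2, DNAH1 and DNAH10 lay between 0.00779 and 0.0998 FPKM. The multiciliated markers beside them ranged from 0 to 0.231 FPKM, sum 0.947 FPKM, with the master regulator FOXJ1 at 0.0126 FPKM and MCIDAS and TEKT1 listed at 0.

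Several chains are listed under older symbols that the rule does not catch, chosen after their values were seen. The dynein 2 intermediate chains WDR34 and WDR60 stood at 0.959 and 0.0605 FPKM, and the axonemal chains WDR63 and WDR78 at 0.211 and 0.0602 FPKM. CASC1, now named as an axonemal intermediate chain, was at 2.17 FPKM. Counting these 5 with the ciliary class gave 7 of 25 (28.0%) at 1 FPKM or more and a median of 0.211 FPKM.

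The cargo side of ciliary transport lay somewhat above all genes at 1 FPKM but below them at 5 FPKM. Of 18 intraflagellar transport proteins 11 (61.1%) passed 1 FPKM, with a median of 1.30 FPKM. All genes had 48.8% and 0.916 FPKM. At 5 FPKM or more there was only IFT20 (5.56%), beside 28.4% of all genes. IFT20, which also works at the Golgi, stood at 152 FPKM, followed by IFT46 (4.36 FPKM) and TTC21B (3.53 FPKM), and IFT80 (0.976 FPKM), IFT27 (0.844 FPKM) and IFT74 (0.471 FPKM) were the highest below the threshold. Of 24 motile cilium genes 4 (16.7%) passed, with a median of 0.140 FPKM. These 4 were the dynein assembly factors DNAAF2 (32.5 FPKM), DNAAF5 (2.74 FPKM) and DNAAF4 (1.20 FPKM) and the light chain DNAL1 (5.92 FPKM). RSPH9 (0.793 FPKM), SPAG17 (0.680 FPKM) and ARMC4 (0.616 FPKM) came next.

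Of the 6 remaining kinesins, which fit none of the 3 classes, 1 passed 1 FPKM. KIF21A, which slows microtubule growth at the cell cortex, was at 1.59 FPKM, 16.03 times its paralogue KIF21B (0.0989 FPKM). KIF12 stood at 0.127 FPKM and KIF26B at 0.0500 FPKM, and KIF25 was listed at 0. Over all 38 kinesin heavy chains 21 (55.3%) passed 1 FPKM and the median was 1.08 FPKM, so the family as a whole lay near the 48.8% of all genes while its mitotic branch did not.

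Tubulin subunits were dominated by 1 name on the alpha side. TUBA1B stood at 350.0 FPKM, rank 115 of all genes, and took 29.1% of the members' total FPKM, counting only the highest row of each. TUBA4A was at 6.30 FPKM, 55.5 times lower, and TUBA8 at 0.207 FPKM. The 6 rows of TUBA1B were adjacent in the table and added up to 734 FPKM, with 350.0, 234, 71.6, 51.2, 26.1 and 1.04 FPKM each. Whether they are isoforms or close copies grouped under 1 name was not tested. TUBA1A and TUBA1C are not analysed here.

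Beta tubulins were lower and less skewed. TUBB6 was at 18.2 FPKM, TUBB2B at 6.68 FPKM, TUBB4A at 1.72 FPKM and TUBB1, the isotype of platelets, at 0.0718 FPKM. The 10 rows of TUBB2B summed to 14.1 FPKM, with 2 of them, at 6.68 and 6.24 FPKM, holding most of it. The main beta tubulin gene TUBB, whose symbol has no digit and so is no member, stood at 55.98 FPKM. With rows summed the 3 alpha members held 742 FPKM, against 34.1 FPKM for the beta members and 56.04 FPKM for TUBB. TUBB4B lies in the run of zeros and TUBB2A and TUBB3 are not analysed here, so this beta sum is incomplete. The alpha tubulin-like gene TUBAL3, also outside the rule, was at 6.07 FPKM. The plotted list of tubulin genes outside the rule was drawn up by symbol and also holds TBCK, which is a kinase with a TBC domain and no tubulin gene, so no count of that list is given. Of the tubulins tied to centrioles, TUBE1 was at 8.03 FPKM and TUBD1 at 1.76 FPKM (3.45 FPKM with rows summed).

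Folding cofactors, which assemble newly made tubulin pairs, all passed 1 FPKM, beside 48.8% of all genes. TBCC (32.2 FPKM), the beta tubulin chaperone TBCA (30.1 FPKM) and the alpha tubulin chaperone TBCB (27.6 FPKM) were nearly level. TBCD, which holds beta tubulin in the final step, was at 2.19 FPKM, 14.7 times lower than TBCC. TBCE is not analysed here. The chaperonin and prefoldin genes that fold tubulin and actin before these cofactors were all above 10 FPKM, 10 of 10, beside 20.2% of all genes. Their median was 102 FPKM, with TCP1 (233 FPKM), CCT8 (200.0 FPKM) and CCT3 (163 FPKM) highest.

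Among regulators of microtubule turnover STMN1 stood apart at 174 FPKM, rank 251 of all genes. Stathmin binds free tubulin pairs and favours shrinkage, and is switched off by phosphorylation in mitosis. Its paralogue STMN2, known from neurons, was at 5.57 FPKM, 31.2 times lower, and STMN3 (0.276 FPKM) and STMN4 (0.0323 FPKM) were below 1 FPKM. Neuronal markers passed 1 FPKM in 4 of 9 cases (STMN2 itself, NEFL at 20.2 FPKM, MAPT at 6.07 FPKM and SYT1 at 1.09 FPKM), with a summed level of 34.3 FPKM, while the other 5, SYP (0.715 FPKM), SNAP25 (0.461 FPKM), MAP2 (0.0494 FPKM), DCX (0.0406 FPKM) and RBFOX3 (0.0251 FPKM), lay below 1 FPKM. Their part in the level of STMN2 was not tested. Of the end-binding proteins, which ride on growing plus ends, MAPRE2 was at 1.58 FPKM (2.80 FPKM with rows summed) and MAPRE3 at 0.0364 FPKM, and MAPRE1 is not analysed here.

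Proteins that coat, cut or modify microtubules covered a wide range. Over all genes 48.8% passed 1 FPKM. Of 18 structural microtubule-associated proteins 8 (44.4%) passed, with a median of 0.531 FPKM and MAPT, EML4 (5.86 FPKM) and MAP7D2 (3.28 FPKM) highest. CAMSAP3, which anchors minus ends, was at 0.614 FPKM, MAP6 at 0.448 FPKM and MAP7D1 at 0.424 FPKM. Severing proteins passed in 4 of 8 cases (50%), near the share of all genes. KATNBL1 stood at 20.4 FPKM, the katanin subunit KATNA1 at 14.4 FPKM and spastin (SPAST) at 9.67 FPKM. KATNAL1 (0.919 FPKM) and FIGN (0.582 FPKM) lay below 1 FPKM. Tubulin-modifying enzymes passed in 9 of 15 cases (60%), with TTLL1 (5.26 FPKM), AGBL5 (4.74 FPKM) and VASH2 (4.02 FPKM) highest. AGTPBP1 (0.878 FPKM), AGBL2 (0.612 FPKM) and AGBL3 (0.540 FPKM) were the highest below.

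Many members owed their level to more than 1 transcript. Of the 89 members 49 had 2 or more rows. In the 47 of these above 0 the highest row held a median of 76.1% of the gene's summed FPKM, beside 87.3% over all 8076 such genes. KIF20B had the smallest share in its highest row (28.4%), with 4 rows at 6.02, 5.68, 4.82 and 4.72 FPKM. In 20 members the sum exceeded the highest row by more than 1.5 times, 6 of them mitotic kinesins. At the other end KIF5A had 7 rows, 6 of them at 0, and the whole of its 1.85 FPKM in the other. Only KIF14 and KIF13A crossed 1 FPKM by summing.

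**Figure D3:**
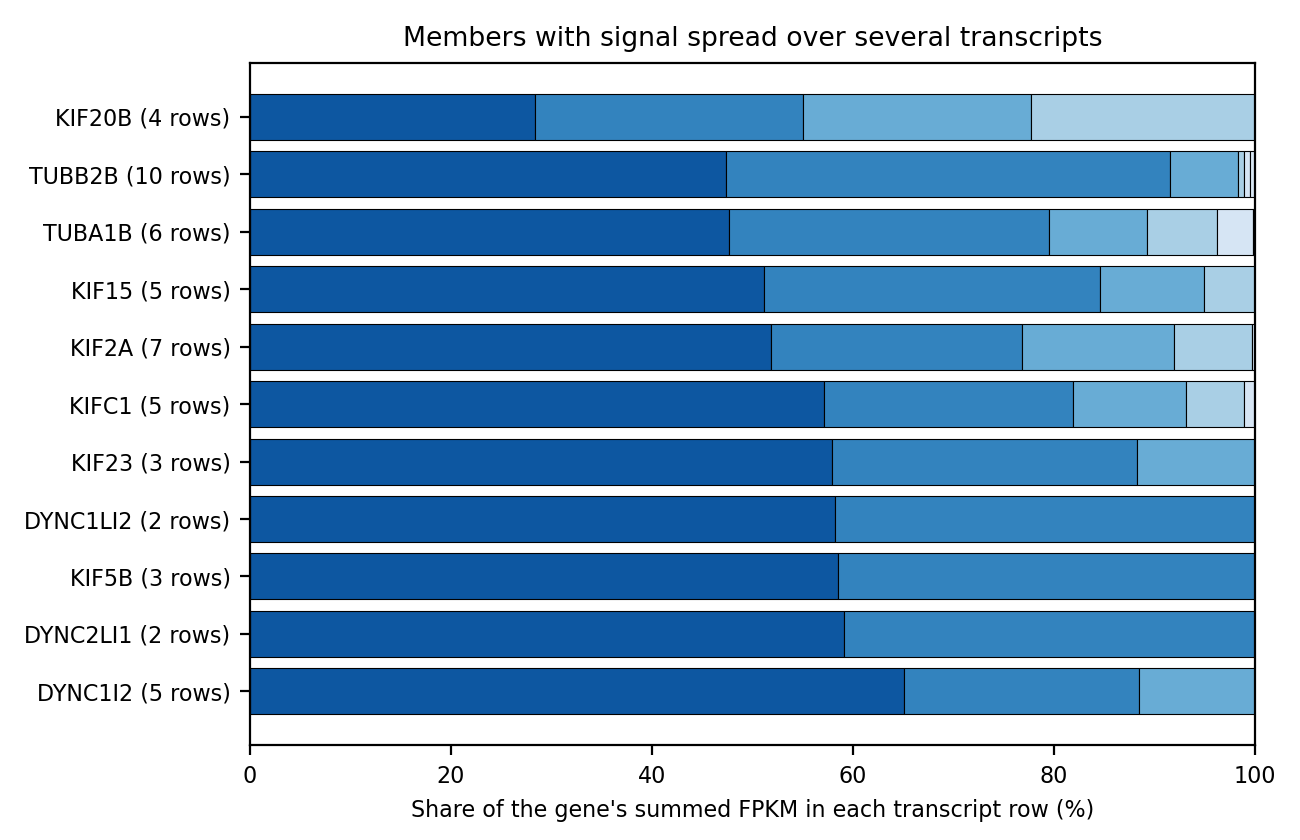
Share of the gene's summed FPKM in each transcript row (horizontal axis, %; darkest segment the highest row) for the members whose sum was over 1.5 times the highest row and reached 5 FPKM. KIF20B is split nearly evenly over 4 rows, and TUBB2B and TUBA1B each keep under 50% in the highest row.

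Some members lay close to the threshold. The 6 between 0.5 and 1 FPKM were DYNLT3, KIF14, KIF27, DNAH11, KIF13A and KIF18B. Another 13 members lay between 1 and 2 FPKM, KIF7 lowest at 1.02 FPKM.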

How the data were processed

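The deposited table holds FPKM values computed by the authors, per the file header, for 37571 Ensembl transcripts in 1 column that merges 4 Smart-seq2 libraries, per the name of the table and the labels' protocols. Whether reads or values were merged, and the aligner and annotation behind this table, are not given in the sources used here. Among the tools in the submitters' processing notes, with no role, are TopHat2 2.1.1 and Cufflinks 2.2.1, and susScr11 is among the builds. In all, 4534 rows lay above 0 and under 1e-06 FPKM, and the depth is unknown. Rows of a gene were joined by name, and the highest was taken as its level. Role lists, partner lists and markers were written by hand, and members and lists were chosen with earlier results of these data known. Of 121 genes on the role lists 88 were measured. All members could be named, and of each partner list the 3 highest and up to 3 genes below 1 FPKM, the highest of these, except 1 gene that is not reported here. Counts at 1 FPKM or more are to be read beside the 48.8% of all genes, and medians beside their 0.916 FPKM. No test was run, since 1 merged column has no replicates. The summaries were tested on simulated data with Python 3.11.15 and pandas 2.3.3. No pig sequence was used here.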

Additional observations from a re-analysis of the deposited data

How the results depend on the processing

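All values come from 1 merged column with unknown depth, so replicate error and counting error are not known, and FPKM can shift with a wrong transcript length or a split between close paralogues. The alternatives were other thresholds (0.5 and 5 FPKM), summed rows, scaling to TPM, leaving out the run of zeros, and keeping only genes at 0.1 FPKM or more, which removes low genes by construction. A share or median was taken as moved beyond 1.5 times, and a difference beyond the log2 of 1.5. No difference changed sign, and 101 alternative values of the main results stayed within these limits while 29 moved. The mitotic shares are counted there both as a role and as a class. A high share cannot rise by 1.5 times, so these counts do not measure stability. Leaving out each library in turn could not be run on a merged column. At 5 FPKM the shares were 46.4% for the transport class, 10% for the ciliary class and for cargo kinesins, 12.5% for ciliary kinesins, 33.3% for kinesin light chains, 50% for delta and epsilon tubulins, and 0% for axonemal dyneins, end-binding proteins and other kinesins. Axonemal dyneins came to 18.2% at 0.5 FPKM and after scaling to TPM. Among genes at 0.1 FPKM or more, shares were 25% for axonemal dyneins, 50% for other kinesins, 54.5% for the ciliary class, and 100% for beta tubulins, end-binding proteins and kinesin light chains, and medians were 7.50 FPKM for transport, 1.02 FPKM for ciliary and 6.49 FPKM for tubulin members. The mitotic minus transport difference was 0.84 with means and 2.36 without dynein light chains. Mitotic minus ciliary was 5.52 with a pseudocount of 0.1, 2.50 with means, 4.11 with summed rows and 2.74 without axonemal dyneins. Transport minus ciliary was 3.51 with a pseudocount of 0.1, 1.15 without dynein light chains and 1.02 without axonemal dyneins. Moving KIF3A and KIF3B to the transport class, and adding the older symbols, both chosen after seeing the data, moved no value past these limits.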
